A study of Rattus norvegicus with 12 samples.

Results

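Rbms3, St6galnac3, Galnt17 and Camta1 are long genes on 4 rat chromosomes whose introns gave rise to small circular DNAs in skin. They were chosen by their circles: in each gene the mean share of a library's genic circles was lower in irradiated than in control skin. All contrasts of these genes with control are therefore given as descriptions, without a test. A listed circle was counted for a gene when the authors' annotation placed it in an exon or intron of that gene. This gave 350 listed circles of 83890 genic circles, and of 228353 listed extrachromosomal circular DNAs (eccDNA) in all. Rbms3 held 114 of them, Camta1 95, St6galnac3 71 and Galnt17 70. None of these entries carried the symbol of a further gene. The 157 larger circles listed apart as ecDNA included 0 that named or overlapped any of the 4 genes.

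The study sequenced circular DNA by Circle-seq, in which linear DNA is digested and the remaining circles are sequenced, from back skin of wild-type Sprague Dawley (SD) rats. The 12 libraries form 3 groups of 4, namely untreated skin (control), skin that received 5 Gy of electrons in each of 2 fractions (named 5 Gy x2), and skin that received 4 such fractions (named 5 Gy x4). Fractions were given 1 week apart and irradiated skin was collected on day 7 after the last, so total dose and time since the first fraction cannot be told apart. The labels do not give a collection time for control skin, nor say that replicates of a group are different rats. The p-values therefore rest on library-to-library spread and on counting error of the circles, not on known differences between rats. Part of that spread may be technical. Circular DNA carries no expression values, so the tissue label was not set against marker genes.

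Small eccDNAs are short pieces of the chromosomes that have been closed into a ring. They occur in healthy tissue and their lengths often follow the spacing of nucleosomes. A circle cut from an intron carries no complete gene. Its appearance in a library reports where in the genome a circle formed and was recovered, not how much the gene was transcribed.

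The 4 genes have different roles. Rbms3 encodes an RNA-binding protein of the family first described as binding single-stranded DNA near the MYC gene. St6galnac3 encodes a sialyltransferase of the Golgi, which adds sialic acid to N-acetylgalactosamine residues of glycoproteins and glycolipids. Galnt17 belongs to the polypeptide N-acetylgalactosaminyltransferases, the family that starts mucin-type O-glycosylation by attaching the first sugar to serine or threonine. Camta1 encodes a calmodulin-binding transcription activator, and in humans its gene is a fusion partner in a vascular tumour, epithelioid haemangioendothelioma.

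The libraries differed in how many circles they held. A circle was taken as present with at least 1 supporting read. Control libraries held 1350 to 3788 genic circles, 5 Gy x2 libraries 2355 to 10708 and 5 Gy x4 libraries 7305 to 17285, on 34499 to 397674 reads supporting eccDNA. In number of genic circles, 5 Gy x2 replicate 4 (2355) lay among the controls. The sequencing depth is unknown. Values below are therefore shares, given as circles per 1000 genic circles of the library. Because the shares rest on few circles, single libraries are imprecise: the 3 St6galnac3 circles of control replicate 4 have a 95% exact (Clopper-Pearson) interval of 0.459 to 6.48 per 1000, and the 2 of 5 Gy x4 replicate 4 one of 0.0332 to 0.989 per 1000. Such intervals cover counting error only. A lower share can come from fewer circles of the gene or from more circles elsewhere, and in whole skin fewer cells of a type and fewer circles per cell cannot be told apart.

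Rbms3 (ENSRNOG00000025881) had circles from 124667956 to 125641282 on chromosome 8 of rn6, a span of 973.3 kb. Control replicates 1 to 4 held 2, 14, 9 and 6 of its circles, which were 1.10, 3.99, 2.38 and 4.44 per 1000 genic circles. The 5 Gy x2 replicates held 6, 15, 11 and 2 circles, or 0.906, 1.40, 1.10 and 0.849 per 1000. The 5 Gy x4 replicates held 12, 18, 21 and 13 circles, or 1.45, 1.09, 1.21 and 1.78 per 1000. Control replicates 2, 3 and 4 lay above every irradiated library, while control replicate 1 lay among them. Mean shares in the control, 5 Gy x2 and 5 Gy x4 groups were 2.98 ± 1.53, 1.06 ± 0.249 and 1.38 ± 0.304 per 1000 (SD, n = 4), which puts the irradiated groups at 0.357-fold and 0.465-fold control. With circles of at least 5 supporting reads the fold in 5 Gy x2 was 0.231. It was the most variable of the 4 genes among control libraries, with an SD of 1.53 against 0.223 to 0.649 for the other three.

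St6galnac3 (ENSRNOG00000056894) had circles from 259387128 to 259894458 on chromosome 2, a span of 507.3 kb and the shortest of the 4. It held 2, 7, 10 and 3 circles in control replicates 1 to 4, which were 1.10, 1.99, 2.64 and 2.22 per 1000. In 5 Gy x2 it held 6, 8, 11 and 8 circles, or 0.906, 0.747, 1.10 and 3.40 per 1000. Replicate 4 of 5 Gy x2 had the highest share of all 12 libraries. In 5 Gy x4 it held 6, 11, 15 and 2 circles, or 0.727, 0.666, 0.868 and 0.274 per 1000, all below every control library. Group means were 1.99 ± 0.649, 1.54 ± 1.25 and 0.634 ± 0.254 per 1000 for control, 5 Gy x2 and 5 Gy x4. At the lower dose the fold to control was 0.772, and at the higher dose 0.318. Without 5 Gy x2 replicate 4, the 5 Gy x2 fold was 0.460, and with circles of the authors' label hconf alone, which the deposited tables do not define, it was 1.32.

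Galnt17 (ENSRNOG00000024435) had circles from 28382264 to 29264854 on chromosome 12, a span of 882.6 kb. Control replicates 1 to 4 held 3, 7, 7 and 2 circles, or 1.65, 1.99, 1.85 and 1.48 per 1000. The 5 Gy x2 replicates held 2, 6, 10 and 3, or 0.302, 0.560, 0.996 and 1.27 per 1000. The 5 Gy x4 replicates held 8, 11, 15 and 4, or 0.970, 0.666, 0.868 and 0.548 per 1000. All 8 irradiated libraries lay below all 4 controls. Mean shares were 1.74 ± 0.223, 0.783 ± 0.435 and 0.763 ± 0.191 per 1000 in control, 5 Gy x2 and 5 Gy x4, with folds to control of 0.449 and 0.437. With circles of at least 5 supporting reads the fold in 5 Gy x2 was 0.291, and with hconf circles the fold in 5 Gy x4 was 0.226.

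Camta1 (ENSRNOG00000018602) had circles from 168146696 to 169010765 on chromosome 5, a span of 864.1 kb. Control replicates 1 to 4 held 4, 6, 7 and 3 circles, or 2.21, 1.71, 1.85 and 2.22 per 1000. The 5 Gy x2 replicates held 7, 17, 8 and 4, or 1.06, 1.59, 0.796 and 1.70 per 1000. The 5 Gy x4 replicates held 10, 14, 19 and 6, or 1.21, 0.847, 1.10 and 0.821 per 1000. Again no irradiated library reached the lowest control, but the gap was narrow, with 5 Gy x2 replicate 4 at 1.70 against control replicate 2 at 1.71. Mean shares were 2.00 ± 0.258, 1.28 ± 0.429 and 0.995 ± 0.192 per 1000, or 0.644-fold control in 5 Gy x2 and 0.498-fold in 5 Gy x4. With circles of at least 5 supporting reads the fold in 5 Gy x2 was 1.00. By share of supporting reads the folds were 0.658 and 0.356, and control libraries overlapped both irradiated groups.

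**Figure D1:**
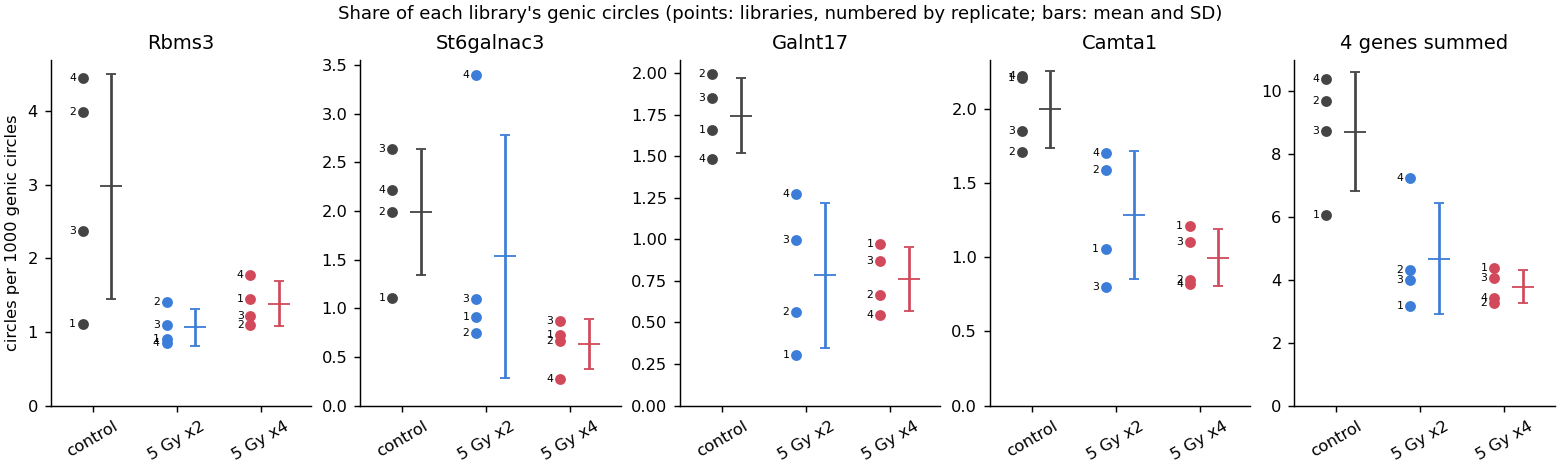
Circles of each gene, and of the 4 genes summed, per 1000 genic circles of the library (vertical axis), by group (horizontal axis). Points are single libraries with their replicate number, and bars give the group mean and SD (n = 4). The summed share of all 5 Gy x4 libraries (3.27 to 4.36) lies below that of all controls (6.07 to 10.4), and 5 Gy x2 replicate 4 stands high in the St6galnac3 panel (3.40).

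Summed over the 4 genes, the share was 6.07, 9.68, 8.71 and 10.4 per 1000 in control replicates 1 to 4. It was 3.17, 4.30, 3.98 and 7.22 in 5 Gy x2 and 4.36, 3.27, 4.05 and 3.42 in 5 Gy x4. The 5 Gy x4 libraries all lay below the controls, and in 5 Gy x2 replicate 4 lay above control replicate 1. The means were 8.71 ± 1.89, 4.67 ± 1.77 and 3.78 ± 0.518 per 1000 (SD, n = 4), which made the summed share 0.536-fold control in 5 Gy x2 and 0.434-fold in 5 Gy x4. The share of supporting reads on these circles was similar in size, at 0.455-fold and 0.407-fold control.

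The number of circles on the 4 genes was not lower in irradiated skin. Control libraries averaged 23 ± 12.2 such circles, those after 2 fractions 31 ± 14.2 and those after 4 fractions 46.2 ± 19.8 (SD, n = 4), and the groups overlapped. The irradiated means are 1.35-fold and 2.01-fold control. Camta1 averaged 5 circles in control and 12.2 in 5 Gy x4 libraries, and Rbms3 7.75 and 16. The lower share stood beside a larger number of genic circles on other genes of the same libraries.

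Between the doses, none of the 4 genes passed the test. The genes were not chosen on this contrast, but low shares in both irradiated groups were part of the choice. The values compared here are therefore not free of it. Circles per gene were tested for the 934 genes with at least 20 circles over the 12 libraries. The edgeR quasi-likelihood test of 5 Gy x4 against 5 Gy x2, with Benjamini-Hochberg adjustment at 0.05, called 0 of 934 genes (0%), and 51 had an unadjusted p under 0.05. DESeq2 called 0, with 9 at an unadjusted p under 0.05. St6galnac3 had a log2 fold change in share of -0.68 (SE 0.37, 95% interval -1.41 to 0.04, edgeR adjusted p = 0.898). Camta1 was at -0.28 (SE 0.34, interval -0.96 to 0.39, edgeR adjusted p = 0.946), Rbms3 at 0.20 (SE 0.34, interval -0.47 to 0.86, edgeR adjusted p = 0.961) and Galnt17 at 0.12 (SE 0.41, interval -0.68 to 0.92, edgeR adjusted p = 0.984). The summed share differed by -0.891 per 1000 between the doses, with 5 Gy x4 lower (two-sided exact permutation p = 0.571, n = 4 and 4, smallest possible 0.0286). Without 5 Gy x2 replicate 4 the difference was -0.0403 per 1000 (exact permutation p = 1).

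Among all tested genes, lower calls outnumbered higher ones against control, and this background stands beside the genes because they were chosen on these contrasts. In 5 Gy x4 against control, edgeR called 19 of 934 genes lower (2.03%) and 1 higher (0.107%). In 5 Gy x2 against control it called 7 genes lower (0.749%) and 0 higher (0%). The median log2 fold change over all tested genes was nonetheless above 0, at 0.18 (5 Gy x4) and 0.087 (5 Gy x2). With few circles in control libraries, a higher call is hard to reach. Celf2 had 0 circles in control and 16 in 5 Gy x4, yet was not called (edgeR adjusted p = 0.213). The excess of lower calls is therefore not read as a general loss of share. Calls of the 4 genes themselves are not given, since the choice of the genes rests on the same values. With DESeq2 both contrasts called 0 genes, with 120 and 80 at an unadjusted p under 0.05, against 148 and 123 in edgeR. All 4 controls lay above all 4 libraries of 5 Gy x4 in 58 of 934 genes (6.21%), which include St6galnac3, Galnt17 and Camta1. They lay above all 4 libraries of 5 Gy x2 in 32 genes (3.43%), which include Galnt17 and Camta1. Nothing is read from these memberships.

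Most other long genes, which were picked by number and span of circles, had a higher mean share in irradiated than in control skin. Of the other tested genes, 94 had circles over at least the 507.3 kb of St6galnac3. Their median log2 fold in share for 5 Gy x4 and 5 Gy x2 was 0.63 and 0.56, and 21 and 25 of the 94 were below 0. Summed, they took 58.2 per 1000 genic circles of control libraries, 80.7 at the lower dose and 80.5 at the higher. By circle span, Rbms3 ranked 14, Galnt17 23, Camta1 25 and St6galnac3 98 among the 934 tested genes, whose median was 229.9 kb. Among the 76 genes with at least 60 circles, the fold in 5 Gy x4 was the 4th lowest for St6galnac3, the 8th for Galnt17, the 10th for Rbms3 and the 11th for Camta1, beside a median log2 fold of 0.16. In 5 Gy x2 the ranks were 17, 11, 5 and 13 in the same order, beside a median of 0.23.

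**Figure D2:**
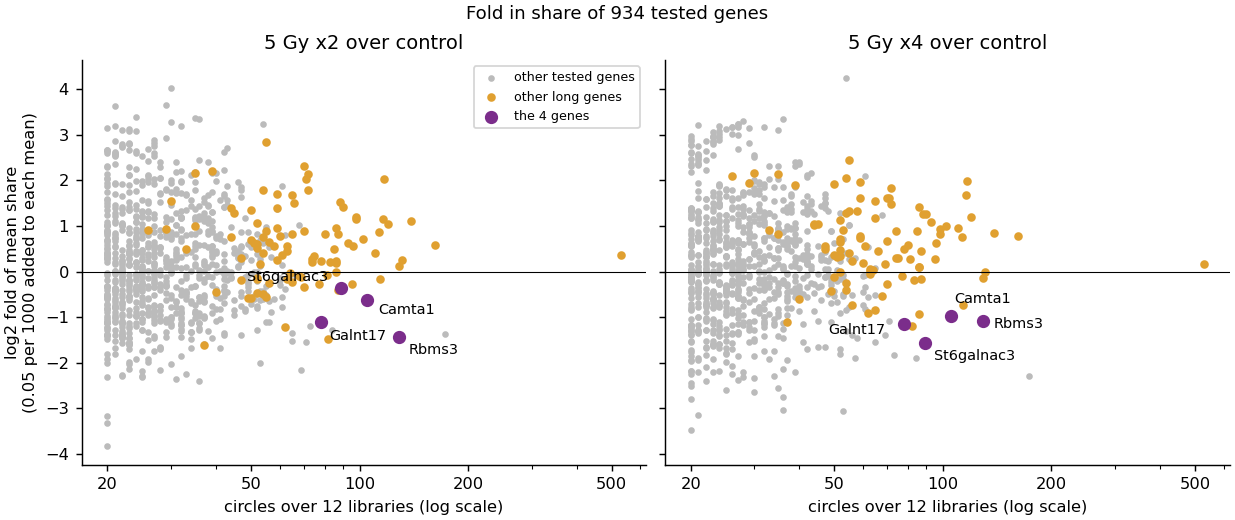
Log2 fold in mean share (5 Gy x2 and 5 Gy x4 over control, with 0.05 per 1000 added to each mean) of 934 tested genes against their number of circles over 12 libraries (log axis). Purple points are the 4 genes, orange points the 94 other genes of at least 507.3 kb circle span. The 4 genes, chosen for a lower share, lie below 0 in both panels while most orange points lie above it. The orange genes met the needed count and span of circles mostly through irradiated libraries, which favours folds above 0.

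Genes with a like number of circles, which were not chosen by their share, are given for scale only, since a difference from the 4 genes follows from how those were chosen. Cdh13, a cadherin without a transmembrane stretch, had as many circles as Rbms3 (129) and shares of 1.42 ± 0.603, 1.55 ± 0.267 and 1.29 ± 0.379 per 1000 in the control, 5 Gy x2 and 5 Gy x4 groups (SD, n = 4). Dpyd, which encodes the enzyme that starts pyrimidine breakdown, had 90 circles beside the 89 of St6galnac3. Its share was 0.401 ± 0.627, 1.16 ± 0.140 and 1.04 ± 0.244 per 1000. Adgrv1, an adhesion receptor of inner ear hair cells, had 78 circles, the number of Galnt17, and shares of 0.693 ± 0.734, 0.825 ± 0.0684 and 0.990 ± 0.124. Lrrc4c, a synaptic adhesion protein gene, had 102 circles beside the 105 of Camta1, with shares of 0.615 ± 0.714, 1.03 ± 0.380 and 1.28 ± 0.407. Further genes near in count were 1 without a symbol for Rbms3, Cntn5 and 1 without a symbol for St6galnac3, Nlgn1 for Galnt17, and Pde4d and 1 without a symbol for Camta1. Over these 10 genes the log2 fold in mean share to control ran from -0.17 to 1.27 in 5 Gy x4 and from -0.40 to 1.53 in 5 Gy x2. In each of the 10 the control libraries overlapped both irradiated groups.

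The genes whose share ran most like the summed share over the 12 libraries were Ighm, Apoo and Ttc28, with Pearson r of 0.897, 0.875 and 0.844 among 72 genes of at least 60 circles (median r -0.262). Ighm encodes the heavy chain constant region of immunoglobulin M, Apoo a protein of the mitochondrial inner membrane complex that shapes cristae, and Ttc28 a tetratricopeptide repeat protein. Over control, 5 Gy x2 and 5 Gy x4 libraries, Apoo took 7.02 ± 4.89, 2.68 ± 3.03 and 1.39 ± 0.693 per 1000 genic circles. Ighm took 2.88 ± 1.62, 1.16 ± 1.25 and 0.733 ± 0.205, and Ttc28 1.99 ± 1.14, 0.838 ± 0.159 and 0.524 ± 0.223. Between pairs of the 4 genes r ran from 0.358 (Rbms3 and St6galnac3) to 0.732 (Galnt17 and Camta1) over 12 libraries. These correlations describe libraries that also share group and number of circles.

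Circles were spread along each gene. Per 100 kb of span, St6galnac3 had 17.5 circle findings over the 12 libraries, Rbms3 13.3, Camta1 12.2 and Galnt17 8.84. The circles together covered 4.54% of the span of St6galnac3, 3.96% of Rbms3, 3.44% of Camta1 and 2.76% of Galnt17. Merging circles that overlap left 108 separate places in Rbms3, 90 in Camta1, 64 in Galnt17 and 61 in St6galnac3. The widest stretch without a circle was 289.4 kb in Galnt17 and 51.6 to 54.1 kb in the others. When each span was divided into 4 equal parts, the last part of Galnt17 held 3 circles, all found in 5 Gy x2 libraries. The length given for its span rests on them. Its low number of findings per 100 kb, its percent covered and its rank by span rest on them too.

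In Camta1 the control circles lay toward the end of the span with the higher coordinates. From the first to the last part, control libraries held 1, 2, 9 and 8 of its circles, 5 Gy x2 libraries 8, 8, 9 and 11, and 5 Gy x4 libraries 10, 14, 15 and 10. For Rbms3 the same counts were 7, 5, 8 and 11 for control, 8, 9, 9 and 8 for 5 Gy x2, and 21, 14, 9 and 20 for 5 Gy x4. In St6galnac3 the third part was the fullest in every group, with 10, 14 and 12 circles in control, 5 Gy x2 and 5 Gy x4. The counts per part are few, and no test was made on them.

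**Figure D3:**
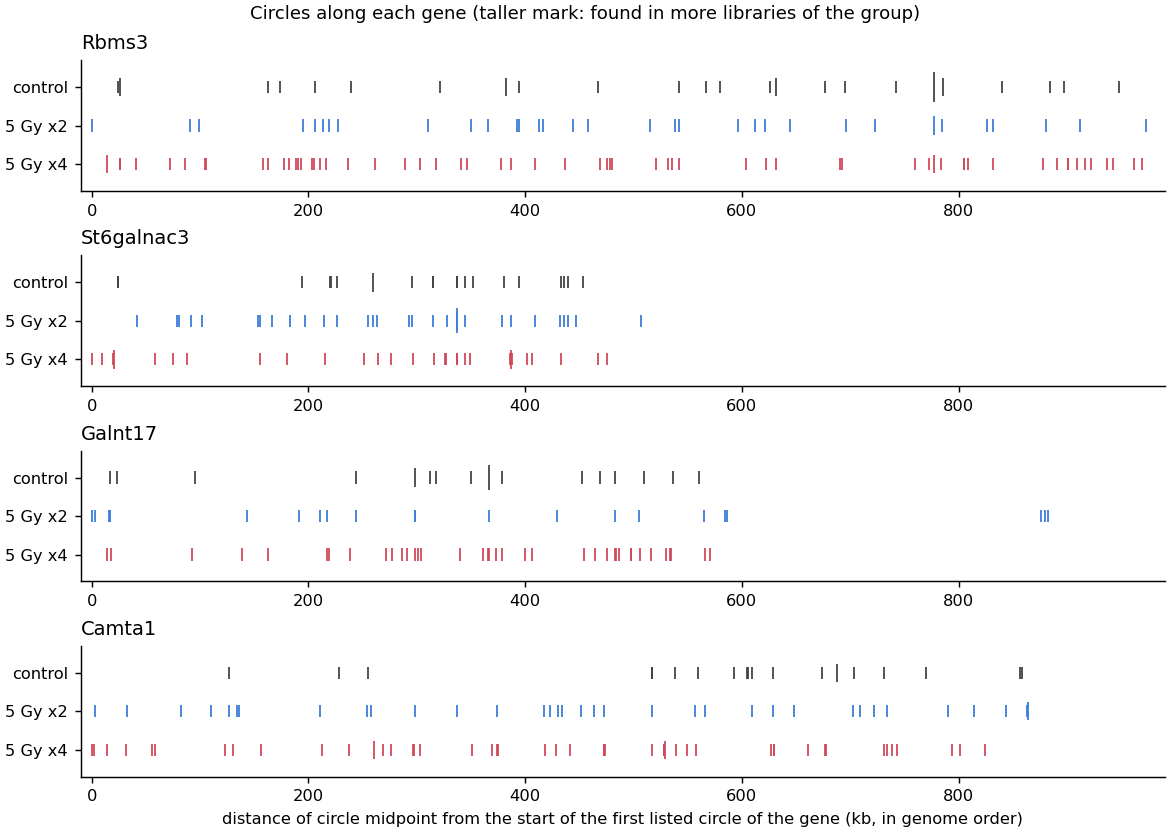
Position of every circle along each gene, as distance in kb from the first listed circle of the gene, in genome order (horizontal axis), with 1 line of marks per group. Taller marks were found in more libraries of the group. Circles lie along the whole of each span except for a stretch of 289.4 kb in Galnt17, and control circles of Camta1 (20 findings) lie mostly in the last 2 of 4 equal parts (9 and 8 findings).

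By annotation 349 of the 350 circles were intronic and 1, in Galnt17, was exonic, found in 5 Gy x2 replicate 2. Within libraries, 0.181% of the circles on the 4 genes were exonic against 11.6% of other genic circles, a difference of -11.4 percentage points (SD 2.05, lower in 12 of 12 libraries). The two-sided exact sign-flip permutation test over 12 libraries gave p = 0.000488, the smallest it can give, and an adjusted p of 0.00293 over 6 measures. Set against the 6709 circles of the 94 other long genes alone, the difference was -1.68 points (adjusted p = 0.00586 by the same exact test). Only 5 Gy x2 replicate 2 held an exonic circle of the 4 genes. With few circles per library and a low rate in long genes, a share of 0 is a common outcome. Nothing is read from this p-value. Most of the gap to other genic circles is thus also present in the other long genes.

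Circle lengths clustered near 350 bp in all 4 genes. Medians were 351 bp in Rbms3, 370 in St6galnac3, 354.5 in Galnt17 and 350 in Camta1, and the 350 circles ran from 29 to 1522 bp. Within libraries the median length differed by 1.88 bp from that of other genic circles (SD 19.8, higher in 7 of 12 libraries, exact permutation p = 0.805, adjusted p = 0.805). Lengths of 330 to under 420 bp, the main length class, were less frequent on the 4 genes, at 47.9% against 54.9%. That difference was -7.09 points (SD 7.85, lower in 10 of 12 libraries, exact permutation p = 0.00732, adjusted p = 0.0110). A circle found in several libraries counts with its length in each, so the libraries are not fully independent in this test. Circles of the 4 genes in control libraries were in this class in 27 of 92 findings (29.3%), against 77 of 124 (62.1%) at the lower dose and 113 of 185 (61.1%) at the higher. Other genic circles showed the same step, with 34.9%, 67.5% and 68.1%.

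The lower mean share of the 4 genes summed was present in both length classes, though libraries overlapped. Of circles of 330 to under 420 bp, the 4 genes took 7.32 ± 2.78 per 1000 in control skin, 3.82 ± 0.803 after 2 fractions (0.522-fold) and 3.37 ± 0.242 after 4 (0.461-fold). Of circles of other lengths they took 9.42 ± 1.42, 5.96 ± 3.65 (0.633-fold) and 4.56 ± 1.37 (0.484-fold). The single genes differed here. Rbms3 was at 0.332-fold control at both doses among circles of 330 to under 420 bp. Its control mean there, 3.23 ± 4.22, came from libraries at 0 to 9.43 per 1000. Among the others its folds were 0.274 in 5 Gy x2 and 0.606 in 5 Gy x4. Galnt17 in 5 Gy x2 was at 0.246-fold control among circles of 330 to under 420 bp and at 0.807-fold among the others. In 5 Gy x4 its folds were 0.521 and 0.308. Camta1 was at 0.902-fold and 0.766-fold control among circles of 330 to under 420 bp, and at 0.734-fold and 0.497-fold among the others. St6galnac3 was at 1.06-fold control in 5 Gy x2 among circles of 330 to under 420 bp, so its lower share there did not hold within this class.

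**Figure D4:**
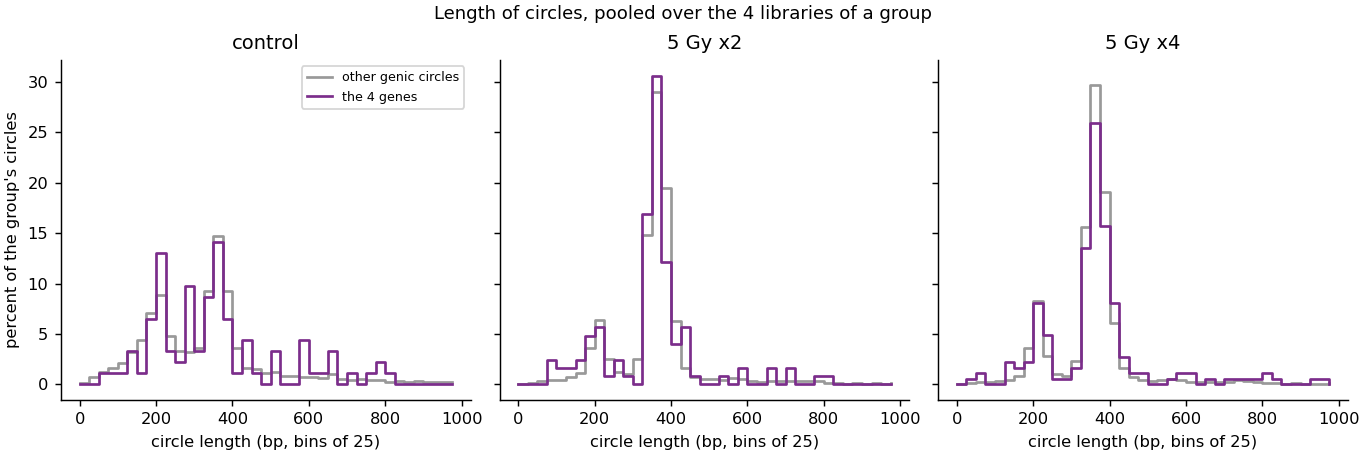
Percent of a group's circles (vertical axis) by length in bins of 25 bp (horizontal axis), for the 4 genes (purple) and other genic circles (grey), pooled over the 4 libraries of each group and drawn up to 1000 bp. The peak at 330 to under 420 bp holds 29.3%, 62.1% and 61.1% of findings on the 4 genes in the control, 5 Gy x2 and 5 Gy x4 groups, beside 34.9%, 67.5% and 68.1% of other genic circles.

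Some circles of the 4 genes were found again in other libraries. Of the 350, 36 were found in more than 1 library: 13 of St6galnac3, 9 of Rbms3, 9 of Camta1 and 5 of Galnt17. Within libraries, 27.2% of circles on the 4 genes were also listed in another library, against 16.2% of other genic circles. The difference was 10.96 points (SD 8.02, higher in 11 of 12 libraries), and it is given without a test. Libraries that share a circle are not independent in this measure, and such circles made up more of the findings in control libraries, where the genes were chosen to be high. Of findings on the 4 genes, the share on such circles was 38.0%, 21.0% and 14.1% over the control, 5 Gy x2 and 5 Gy x4 groups, beside 26.5%, 9.49% and 7.13% of other genic findings. With circles found in 1 library only, a setting chosen after seeing the data, the summed share was 0.514-fold control in 5 Gy x2 and 0.453-fold in 5 Gy x4.

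The circle found most often lay in Rbms3, at chr8:125444761-125445349 of rn6 (589 bp), and was found in 8 libraries, among them all 4 controls. It had 19, 27, 35 and 29 supporting reads in control replicates 1 to 4, and 1 to 75 in the 2 libraries of each dose that held it. A circle of Galnt17 at chr12:28748856-28749356 (501 bp) was found in 3 control libraries, with 14, 55 and 42 reads, and in 0 of 8 irradiated ones. A further Galnt17 circle at chr12:28680440-28681100 (661 bp) was found in 2 control libraries, 1 of 5 Gy x2 and 1 of 5 Gy x4. A single circle of St6galnac3 showed the other order. This circle at chr2:259724040-259724475 (436 bp) was found in 0 controls, 3 libraries of 5 Gy x2 and 1 of 5 Gy x4, with 135 reads in all. It overlaps a second St6galnac3 circle at chr2:259723530-259724252 (723 bp), found in 1 control, 2 libraries of 5 Gy x2 and 1 of 5 Gy x4. These 5 were the circles of the 4 genes found in most libraries, with ties ordered by reads.

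The circles of the 4 genes carried the label hconf more often than other genic circles of the same library. The mean was 39.8% against 31.6%, a difference of 8.26 points (SD 8.31, higher in 11 of 12 libraries, exact permutation p = 0.00342, adjusted p = 0.00684). The label belongs to the listed circle, so a circle found in several libraries carries it into each. The 589 bp hconf circle of Rbms3 counts in 8 libraries. The libraries are therefore not independent in this test, and its p-value cannot be taken at face value. The library's median of supporting reads per circle averaged 8.5 over the 12 libraries on the 4 genes and 7 on other genic circles, a difference of 1.5 reads (SD 3.39, higher in 7 and lower in 3 of 12 libraries, exact permutation p = 0.184, adjusted p = 0.220).

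The regions around the genes were set beside them, as shares of all eccDNA of a library. Around Camta1 the other circles to 1 Mb on either side were also lower in irradiated skin, at 1.89 ± 0.685 per 1000 eccDNA in control skin, 0.847 ± 0.184 after 2 fractions (0.447-fold) and 0.778 ± 0.111 after 4 (0.411-fold). Around Rbms3 they were at 1.39 ± 0.0477, 0.708 ± 0.162 (0.508-fold) and 0.840 ± 0.137 (0.603-fold). Every control library lay above every irradiated one in both regions. These regions held 195 (Camta1) and 188 (Rbms3) listed circles over the 12 libraries, so single libraries held few. How many other regions of this size separate the groups in this way was not counted. Around St6galnac3 they were at 1.75 ± 0.757, 1.25 ± 0.452 (0.717-fold) and 0.898 ± 0.143 (0.513-fold). There the control libraries (0.834 to 2.50) overlapped those of 5 Gy x2 (0.835 to 1.90) and 5 Gy x4 (0.745 to 1.09). The whole chromosome outside the gene was at 1.02-fold control at both doses for Camta1, at 1.07-fold at both for Rbms3, and at 1.13-fold and 1.15-fold for St6galnac3. The share of these chromosomes was therefore not lower.

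Galnt17 was different. The circles to 1 Mb on either side of it were at 0.83-fold control in 5 Gy x2 and 1.10-fold in 5 Gy x4. Chromosome 12 outside the gene took 36.6 ± 7.50 per 1000 eccDNA of control libraries, 19.7 ± 1.71 after 2 fractions (0.539-fold) and 18.1 ± 0.753 after 4 (0.494-fold), with all controls (29.0 to 46.9) above all irradiated libraries (17.1 to 22.1). Of the circles of chromosome 12, Galnt17 took 18.1 ± 4.84 per 1000 of control libraries, 14.2 ± 7.29 after 2 fractions (0.782-fold) and 15.3 ± 3.43 after 4 (0.844-fold), and the groups overlapped. How often other chromosomes separate control from irradiated libraries was not counted. The part of chromosome 12 as a whole in the share of Galnt17 was not tested.

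**Figure D5:**
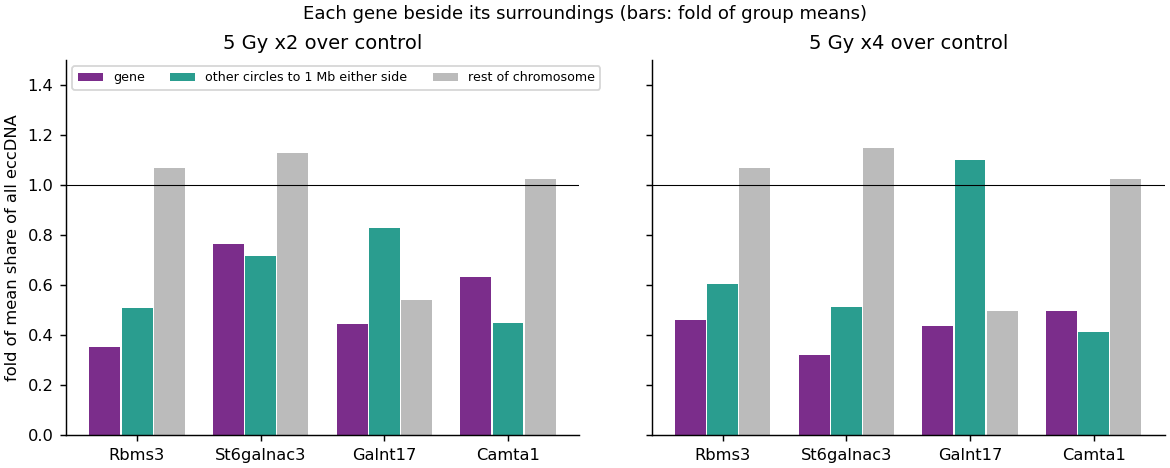
Fold of mean share of all eccDNA over control (vertical axis, from 0) in 5 Gy x2 and 5 Gy x4, for each gene, for the other circles to 1 Mb on either side, and for the chromosome outside the gene. Bars are ratios of group means of 4 libraries each, with no error drawn, and the line marks a fold of 1. Flank means are low with the gene at Rbms3, St6galnac3 and Camta1, though control and irradiated libraries overlap at the St6galnac3 flank. The whole of chromosome 12 is low with Galnt17 (0.539 and 0.494).

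Relatives of the 4 genes rarely had enough circles to be tested. Over all tested genes edgeR called 2.03% lower and 0.107% higher in 5 Gy x4, 0.749% and 0% in 5 Gy x2 and 0% between the doses, and a count of 0 in lists this short does not set them apart from that background. Of 18 other polypeptide GalNAc-transferases, 17 had a circle and 4 were tested, with 0 called in either direction in any comparison. In 5 Gy x4 over control 1 of the 4 had a log2 fold below 0, and the median of those with a control circle was 0.14, beside 0.18 over all tested genes. Galnt13 had 59 circles and a log2 fold of 0.14 in 5 Gy x4 over control (SE 0.66, edgeR adjusted p = 0.920). Galnt18 had 47 circles and a log2 fold of -1.74 (SE 0.56, edgeR adjusted p = 0.0688). Of 19 other sialyltransferases 1 was tested, St3gal3, with 31 circles and a log2 fold of -0.06 (SE 0.81, edgeR adjusted p = 0.980). Of 10 enzymes that extend O-glycan cores 6 had a circle and 0 were tested.

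Among 11 RNA-binding relatives of Rbms3, 5 were tested and 0 called in any comparison. In 5 Gy x4 over control 1 of the 5 had a log2 fold below 0, and the median of those with a control circle was 1.43. Rbfox1, a splicing regulator, had 30 circles, 1 of them in control, and a log2 fold of 1.85 (SE 1.15, edgeR adjusted p = 0.424). Celf2, another splicing regulator, had 29 circles and 0 in control, so no fold is given for it. Among 17 genes of the calmodulin pathway and the Camta family, 3 were tested and 0 called in any comparison, with a median log2 fold of -0.95 in 5 Gy x4 over control and 2 of the 3 below 0. Camk1d, a calmodulin-dependent kinase, had 52 circles and a log2 fold of -1.48 (edgeR adjusted p = 0.131). Ppp3ca, the catalytic subunit of calcineurin, had 40 circles and a log2 fold of -0.95 (edgeR adjusted p = 0.496). The third, Camk4, a calmodulin-dependent kinase named after its value was seen, had 31 circles and a log2 fold of 0.26 (SE 0.89, edgeR adjusted p = 0.920).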

How the data were processed

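The authors deposited whole-number counts of supporting reads per listed circle and library, with no normalization, per the file headers, and 2 annotation tables. BWA, Picard, bedtools and the build rn6 are named in the submitters' processing notes. For circle calling, and for merging circles across libraries, the method is not given in the sources used here. Starts were turned from 0-based to 1-based, and 16 columns of per-library calls were not used.

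A circle was present with at least 1 supporting read. Shares are circles per 1000 genic (exon or intron) circles of the library. Counts of circles per gene (at least 20) were fitted with edgeR 4.0.16 (quasi-likelihood F test, 1 fit of 12 libraries, group as the only term, library size as genic circle-gene pairs). The common dispersion of this fit was 0.000879, so its p-values rest largely on counting error. DESeq2 1.42.0 was an alternative. Within-library differences were tested by exact sign flips, with Benjamini-Hochberg adjustment over 6 measures (scipy 1.17.1). This test takes libraries as independent, although some circles are found in several of them. The edgeR step was tested on simulated data. Depth was 1350 to 17285 genic circles per library. No rn6 sequence was used here, so no circle sequence is shown.

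The genes, lists and measures were chosen with earlier results of these data known. The text names the 4 genes, the 3 genes whose share correlates best with their summed share, genes among the 3 nearest to each in number of circles (the rest are not reported here), up to 2 tested genes with most circles per list, and the 5 circles found in most libraries. Alternatives were other thresholds of presence, denominators, length classes, filters and normalizations, leaving out each library, and a replicate block.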

Additional observations from a re-analysis of the deposited data

Results flagged for a closer look

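In groups of 4 libraries, 33 sets of values on the 4 genes were searched for a library far from the others, by Dixon's ratio of its gap to the whole range. Chance marks about 1 in 20 such groups, and 3 of the 33 stood out. The St6galnac3 share of 5 Gy x2 replicate 4 was 3.40 per 1000 genic circles (8 circles), with a gap of 0.869 of the range. In the same library the median length of circles on the 4 genes exceeded that of other genic circles by 30 bp, a gap of 0.892 of the range. In control replicate 4, the exonic share on the 4 genes minus that of other genic circles was -6.36 percentage points, against -9.93 to -10.5 in the other controls, a gap of 0.854 of the range. The exonic share on the 4 genes was 0 in every control library. This last flag therefore concerns other genic circles and not the 4 genes.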

How the results depend on the processing

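The summed share stayed below control in all alternatives run: the log2 fold was -1.36 to -1.05 in 5 Gy x4 and -1.04 to -0.66 in 5 Gy x2 over other settings, and -1.34 to -1.11 and -1.19 to -0.75 with single libraries left out. The genes were chosen for a lower share and these runs reuse the same circles. That the direction held therefore follows largely from the choice, and only the range of the folds is described. St6galnac3 in 5 Gy x2 turned to a log2 fold of 0.088 with circles of 330 to under 420 bp and 0.40 with hconf circles. Over the settings other than leaving out libraries, the log2 fold to control in 5 Gy x2 ran from -2.02 to -0.31 for Galnt17 and from -0.88 to -0.00065 (at least 5 supporting reads) for Camta1, and in 5 Gy x4 from -2.15 to -0.94 and from -1.45 to -0.38. Galnt17 in 5 Gy x4 over 5 Gy x2 turned to -0.12 with at least 2 reads, and ranged from -0.10 to 0.44 with single libraries left out. The median length difference turned to -0.292 bp with at least 2 reads and -4.90 bp with the genes weighted equally, and ranged from -0.818 to 6.32 bp with single libraries left out. The difference in median reads was 3.22 with the genes weighted equally (exact permutation adjusted p = 0.0132, against 0.220). For the exonic, hconf and main length class shares every alternative run kept the direction and the adjusted p stayed under 0.05. None of these runs took out the circles that libraries share.

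The calls against control depend on the tool. For 5 Gy x4 against control (20 genes, 1 higher and 19 lower), TMM factors left 6 (2 higher, 4 lower), DESeq2 0, filterByExpr 8 and no filter 9. For 5 Gy x2 against control (7 genes), TMM left 0, with 146 at an unadjusted p under 0.05, DESeq2 0 and no filter 4. Leaving out single libraries gave 4 to 20 and 2 to 7 genes, with the lowest values (4 and 2) without control replicate 4, 9 and 4 without control replicate 2, and 10 without control replicate 3 in 5 Gy x4. Without 5 Gy x2 replicates 1 and 3, 4 and 3 genes were called in 5 Gy x2. The cause was not tested. With the replicate block, 18, 6 and 0 genes were called against control (5 Gy x4, 5 Gy x2) and between the doses. The dose difference in summed share of -0.891 had an exact sign-flip p of 0.75 over same-numbered libraries. With 4 such differences this test cannot reach 0.05. Same-numbered libraries deviated together with r of -0.0481 to 0.139 over 12 pairs, and 6 of 12 libraries matched their own number best, so the numbers were not taken as pairs. The few circles per gene in control libraries limit every fold.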
